A study of Mus musculus with 2 samples.

Results

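The serpins are a family of proteins with a common fold, and most of them inhibit proteases. Their genes were taken as every gene of the expression matrix whose symbol begins with Serpin, which gave 69 of 55487 genes, 62 annotated as protein coding and 7 as pseudogenes. The RNA came from single medullary thymic epithelial cells of C57BL/6 mice, sorted for low MHC and for absence of Pdpn and CD104. The 4 Hnf4dTEC samples carried Foxn1(cre/+), Hnf4a(fl/fl) and Hnf4g(-/-), and the 3 Hnf4ctrl samples carried Foxn1(cre/+), Hnf4a(fl/+) and Hnf4g(+/-), so both genotypes share the Cre driver, and the Hnf4ctrl samples carry 1 floxed copy of Hnf4a and 1 null copy of Hnf4g. Foxn1-Cre acts in thymic epithelium, whereas the null Hnf4g allele is not limited to it. Age was not given. The labels leave unsaid whether samples came from different animals, and the p-values measure the spread among these samples, which may be technical. Each sample had its own hash tag, all passed through 1 droplet run, and the authors assigned each cell to a sample and to 1 of 15 classes, many of which mimic peripheral tissues such as gut, skin or muscle.

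A serpin presents a flexible loop that a protease cuts, after which the serpin changes shape and traps the enzyme. Clade A members are mostly secreted and are known from liver and plasma, and clade B members mostly stay inside the cell, where they restrain cathepsins, granzymes and leukocyte elastases. A few members have other jobs, such as carrying hormone or folding collagen. Medullary thymic epithelium is known for transcribing such tissue-restricted genes, to which developing T cells are made tolerant.

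The counts covered 5890 Hnf4dTEC and 3295 Hnf4ctrl cells, with 10127838 to 25821970 UMIs per sample; a UMI marks 1 captured RNA molecule, and CPM here means UMIs per 1000000 UMIs of the same sum of cells. UMIs were read from the 3' end, where a transcript's length should matter little when members are compared; whether intronic reads were also counted, which would bring in gene length, is not given in the sources used here. Samples of 1 genotype differed beyond sampling noise, with a chi-square per gene of 5.64 or more for every pair, so none was another's library deposited again, which says nothing of whether they share an animal. Hnf4g averaged lower over all cells of Hnf4dTEC samples (log2 fold change -0.50, adjusted p = 0.0384 by edgeR), and Hnf4a had at most 2.27 CPM in Hnf4dTEC and 3.18 CPM in Hnf4ctrl samples. A 3' read can lie outside the deleted part of either gene, so these levels are no check of the deletion. The marker lists for 12 of the 13 classes that had one had 3 or 4 of 4 genes highest in their own class, and the Klk-rich class had 0 of its 4 kallikrein markers highest there, so that name is only the authors' label. Entero-hepato cells were 3 in Hnf4dTEC and 82 in Hnf4ctrl samples, and Microfold cells were 1.29% of Hnf4dTEC and 2.31% of Hnf4ctrl cells.

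Of the 69 serpin genes, 67 had at least 1 UMI, 44 had at least 100 and 23 had 1 to 99, and Serpina4-ps1 and Serpina3l-ps had 0. Together they held 158916 of 133319622 UMIs, or 0.119%. Serpinb6a (42199 UMIs) and Serpinb1a (28405 UMIs) carried 44.4% of that sum, and the 10 most abundant members carried 82.8%. The cluster of 17 clade B genes on chromosome 13 held 56.5% of serpin UMIs, and that of 12 clade B genes on chromosome 1 held 25.5%. The 28 clade A genes on chromosome 12 held 9.14%, Serpina7 on chromosome X 3.77%, and 11 genes of other clades 5.16%. In these cells the mostly intracellular clade B genes thus gave most serpin UMIs, and the mostly secreted clade A fewer.

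**Figure D1:**
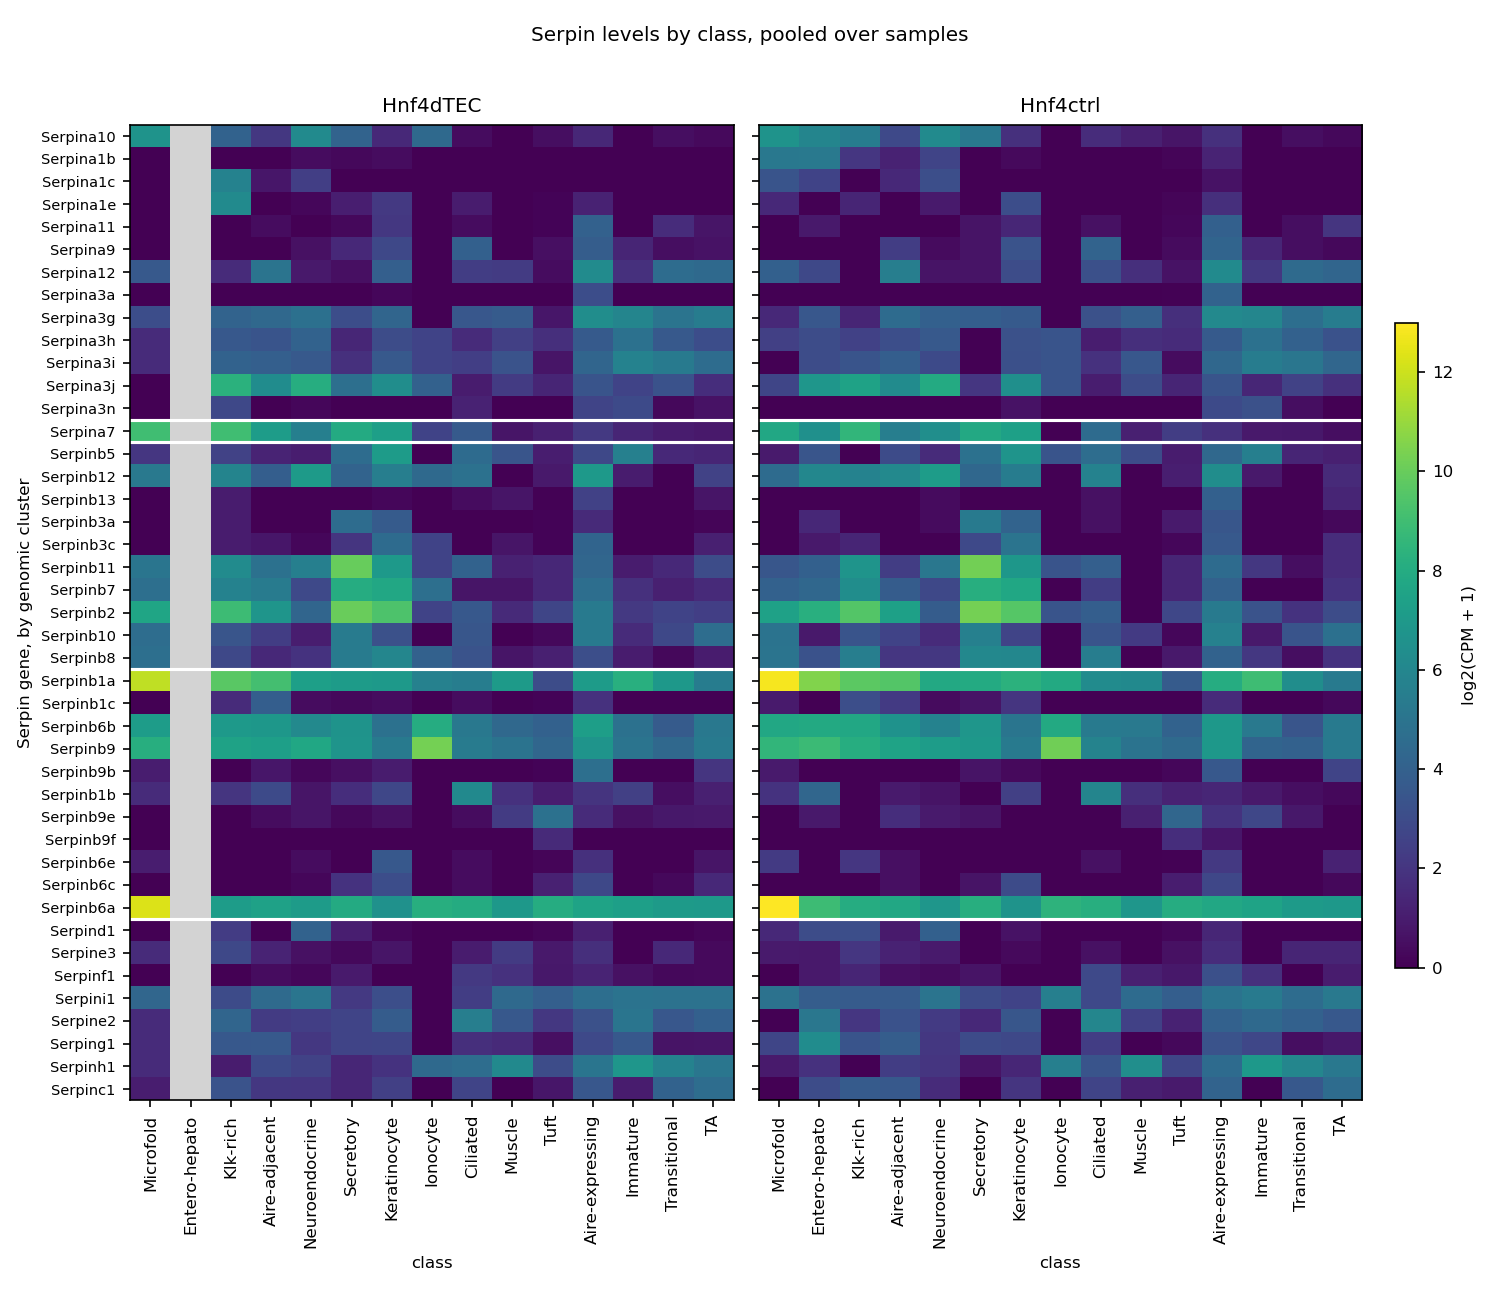
Rows are 43 serpin genes with at least 100 UMIs, ordered by genomic cluster, and columns are the authors' classes, with Hnf4dTEC on the left and Hnf4ctrl on the right. Colour gives log2(CPM + 1) of the UMIs pooled over samples; grey marks the 3 Entero-hepato cells of Hnf4dTEC samples, too few to show, and the brightest cells are Serpinb1a and Serpinb6a in Microfold cells.

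Promoters were read for sequence the members share. The letters CAAAGTCCA and GGTCAAAGG, which resemble sites of HNF4 type receptors, were searched on both strands in RefSeq promoters (GRCm38.p6, 250 bases before and 50 after the start). They occurred in 0.475% and 0.344% of 32851 promoters and in 0 of 63 promoters of 54 serpin genes. This says only that those letters are not in these windows. Serpinb1a had no RefSeq promoter entry, so its promoter was not searched. Serpin promoters held few CG pairs, with a median of 2 per 250 bases against 6 in all promoters, and 6.35% of them held 10 or more against 37.8% of all. The 250 bases before the start are shown for 3 of the genes named in the genotype results that have a RefSeq entry, with CG in capitals. Serpinb6a has 20 CG pairs there, Serpina1b 5 and Serpinb9e 1. RefSeq has another Serpinb6a start, inside the gene, whose 250 bases before it (chr13:33936084-33936333) hold 2 CG pairs, and the counts do not tell the starts apart.
Serpinb6a, chr13:34002795-34003044, minus strand: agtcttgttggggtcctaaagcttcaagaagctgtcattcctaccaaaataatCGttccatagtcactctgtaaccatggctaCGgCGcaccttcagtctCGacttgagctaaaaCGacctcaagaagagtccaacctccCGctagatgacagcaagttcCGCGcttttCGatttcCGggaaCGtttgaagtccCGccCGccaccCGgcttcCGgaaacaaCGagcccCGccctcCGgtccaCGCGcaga
Serpina1b, chr12:103738190-103738439, minus strand: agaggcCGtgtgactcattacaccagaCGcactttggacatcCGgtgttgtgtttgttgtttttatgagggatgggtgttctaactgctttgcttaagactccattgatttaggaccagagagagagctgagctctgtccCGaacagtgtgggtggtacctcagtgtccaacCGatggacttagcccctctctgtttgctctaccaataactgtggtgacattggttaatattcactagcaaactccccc
Serpinb9e, chr13:33249358-33249607, plus strand: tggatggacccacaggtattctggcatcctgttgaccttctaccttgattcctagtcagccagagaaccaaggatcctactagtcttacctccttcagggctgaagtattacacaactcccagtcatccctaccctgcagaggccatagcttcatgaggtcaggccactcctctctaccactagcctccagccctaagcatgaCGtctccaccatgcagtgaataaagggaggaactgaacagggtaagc

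The intracellular protease inhibitors of chromosome 13 were led by Serpinb6a, known to inhibit cathepsin G, and Serpinb1a, the mouse counterpart of the inhibitor of neutrophil elastase. Both were highest in Microfold cells, which resemble the antigen-sampling cells of gut epithelium. Because the classes were made from the RNA of the same cells, levels by class are a description without a test. In Hnf4ctrl samples the median Serpinb6a level was 8688 CPM in Microfold cells (8566 to 10296) and 447 CPM in Entero-hepato cells (368 to 501), the class next in order, with no overlap. Below these, Ionocyte (329 CPM), Secretory (292), Ciliated (282), Klk-rich (259) and Tuft (258) levels overlapped with their neighbours, and the lowest median was 97 CPM, in Muscle cells. Serpinb6a UMIs were thus counted in every class, with 1 class far above the rest. RNA free in the droplet run was not estimated, and its part in the low levels was not tested.

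Serpinb1a varied more among classes. Its Hnf4ctrl medians were 7122 CPM in Microfold, 1779 in Entero-hepato, 937 in Klk-rich and 635 in Aire-adjacent cells, and 12.5 CPM in Tuft cells (8.74 to 14.7). The Entero-hepato range of 1109 to 4232 CPM lay below Microfold and overlapped the Klk-rich range, and Klk-rich and Aire-adjacent ranges overlapped too. Of cells at similar median depth, 142 of 152 Microfold cells (93.4%, median 12228 UMIs) and 321 of 4118 Tuft cells (7.8%, median 12186 UMIs) had a Serpinb1a UMI, so the 2 classes lie apart in share as well as in level.

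Other members led in other classes, though a leading member was not always highest in the class it led. The member with the largest ratio of its level in a class to that in all other cells was Serpinb11 in Secretory cells (1067 against 19.1 CPM) and Serpinb5, an epithelial serpin without known protease inhibition, in Keratinocyte cells (128 against 5.99 CPM). In Ciliated cells it was Serpinb1b (67.2 against 1.88 CPM), in Ionocyte cells Serpinb9, the granzyme B inhibitor (1231 against 66.6 CPM), and in Neuroendocrine cells Serpind1, heparin cofactor II (15.7 against 0.467 CPM). Serpinh1, the collagen chaperone, led in Muscle cells (75.4 against 16.6 CPM) and Serpinc1, antithrombin, in TA cells (23.8 against 4.11 CPM). Serping1, the inhibitor of complement C1, led in Entero-hepato cells (75.7 against 2.96 CPM), but 1 cell gave 47 of its 94 Entero-hepato UMIs. Further leading members were Serpina3a in Aire-expressing cells (10.6 against 0.0168 CPM), Serpina3i in Transitional cells (37.6 against 8.4 CPM), Serpinb9f in Tuft cells (1.99 against 0.0499 CPM) and Serpina1e in Klk-rich cells (46.1 against 0.706 CPM). Serpinh1 and Serpina3i were higher in Immature cells, at 116 and 49.4 CPM, than in the classes they led.

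Several levels rest on few cells. Serpina3a, a relative of antichymotrypsin, had 154 UMIs in Aire-expressing cells, all from 8 of 785 cells, with 98.1% in 5 of them. Serpinb9f had its Tuft UMIs in 19 of 4118 cells (0.461%), and Serpina1e had its 76 Klk-rich UMIs in 2 of 125 cells, with 98.7% in 1 of them. Serpinb13 had 125 UMIs in Aire-expressing cells, from 31 of 785 cells. Serpinb11, in contrast, was found in 360 of 490 Secretory cells (73.5%), and Serpinb1b in 90 of 197 Ciliated cells. Sparse high-UMI cells and a level shared by most cells of a class therefore both occur in the family.

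Some members shared a class pattern, within a genomic cluster and across clusters. Only members with at least 1000 UMIs were compared, and the pairs named were picked by their values. Over the 15 classes in Hnf4ctrl samples, on log2(CPM + 1), Serpinb7, known from skin, and Serpinb2, which inhibits urokinase, had Pearson's r = 0.93 and Spearman's rho = 0.94. Serpinb6b and Serpinb9 had r = 0.92 and rho = 0.93. Of pairs on different chromosomes, Serpina10, known to inhibit factor Xa, and Serpina7 had r = 0.86 and rho = 0.85, and Serpinb2 and Serpina7 had r = 0.85 and rho = 0.83. Serpinb1a and Serpinb6a had r = 0.65 and rho = 0.40. Members of 1 cluster could also differ, with r = -0.50 for Serpina10 and Serpina3i and r = -0.44 for Serpinb9 and Serpinb9e. The most opposed pair lay on different chromosomes, Serpinh1 and Serpina7, with r = -0.95 and rho = -0.93. These are descriptions, since the class sums share libraries and depth, and Serpinb2 and Serpinb10 overlap on 1 strand, so their reads may be split between them.

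The genotype comparison asked how serpin RNA differs where Hnf4a and Hnf4g are both lost. Serpinb1a fell: it had 135, 129, 156 and 116 CPM in the Hnf4dTEC samples and 406, 337 and 339 CPM in the Hnf4ctrl samples. The groups did not overlap. Its log2 fold change was -1.42 with a standard error of 0.12 (adjusted p = 0.00991, edgeR). It was the 1 member called of 47 tested over all cells, where 0.184% of 21187 genes were called; 25 members had negative and 22 positive values, with a median of -0.03 for serpins and 0.00 for all genes. Over all cells, fewer cells of a class and less RNA per cell cannot be told apart, which the classes below address in part.

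**Figure D2:**
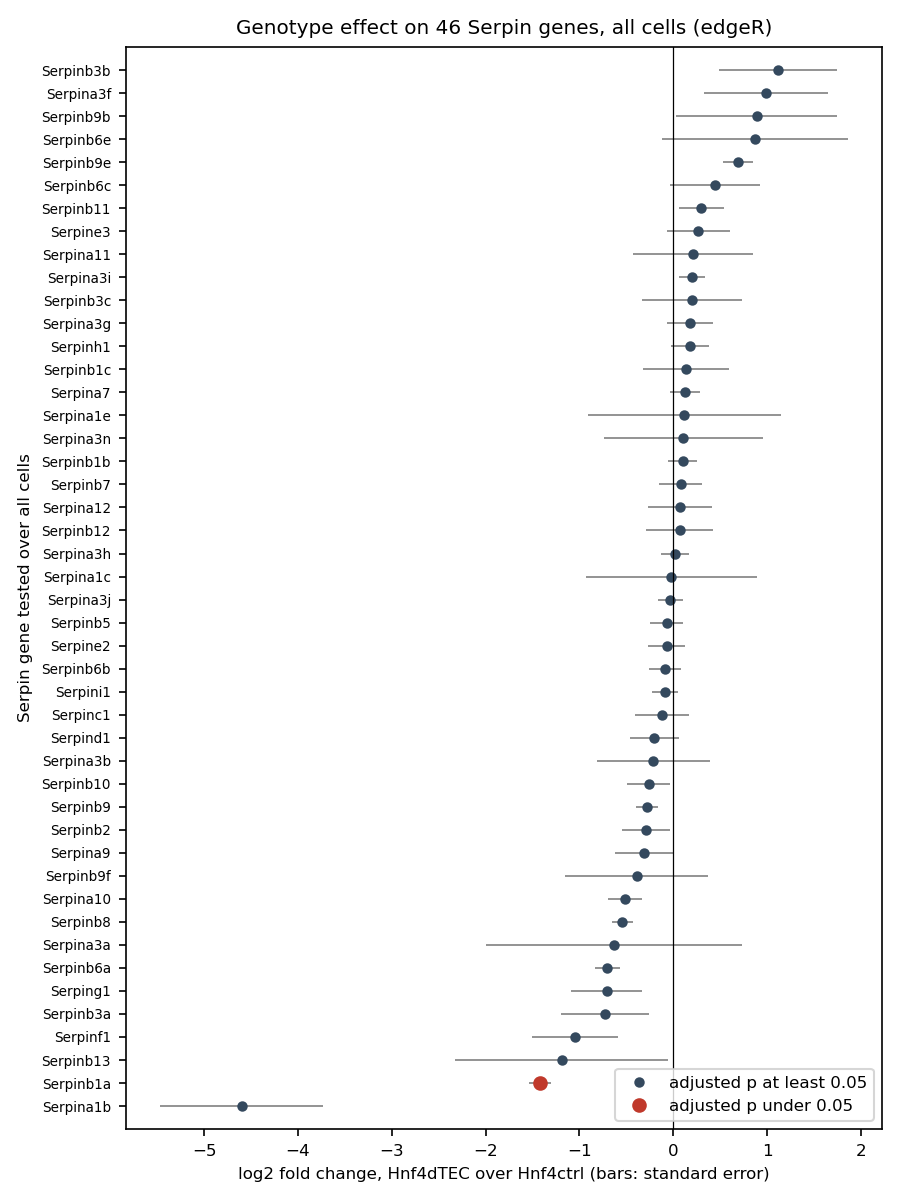
Each of 46 tested serpin genes is shown with its log2 fold change, Hnf4dTEC over Hnf4ctrl, over all cells; bars are standard errors. Serpinb1a at -1.42 alone is drawn as passing an adjusted p of 0.05, and Serpina1b at -4.60 lies lowest with a wide error.

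The classes that hold Serpinb1a differed between genotypes in number as well as in level. Microfold cells gave 28.7% of Serpinb1a UMIs in Hnf4dTEC and 46% in Hnf4ctrl samples, and Entero-hepato cells gave 0.859% in Hnf4dTEC and 9.88% in Hnf4ctrl samples. Leaving out Microfold cells gave -1.0 (adjusted p = 0.0467), and leaving out both classes gave -0.76 (adjusted p = 0.17), which ended the call. With all samples set to 1 common mix of classes, the value was -0.76 (adjusted p = 0.0293), by limma on log2(CPM + 1). That mix took only classes with at least 10 cells in every sample, so it left out Microfold and Entero-hepato cells. Klk-rich, Muscle and Ionocyte cells were left out too, so that fit differs from the main one in method, cells and mix. The call was also lost without Tuft cells (-1.40, adjusted p = 0.0583), without Hnf4ctrl sample 2 (-1.47, 0.0841), without Hnf4dTEC sample 1 (-1.42, 0.0701) and without Hnf4dTEC sample 2 (-1.40, 0.0872), with the value hardly moved in those 4 fits.

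**Figure D3:**
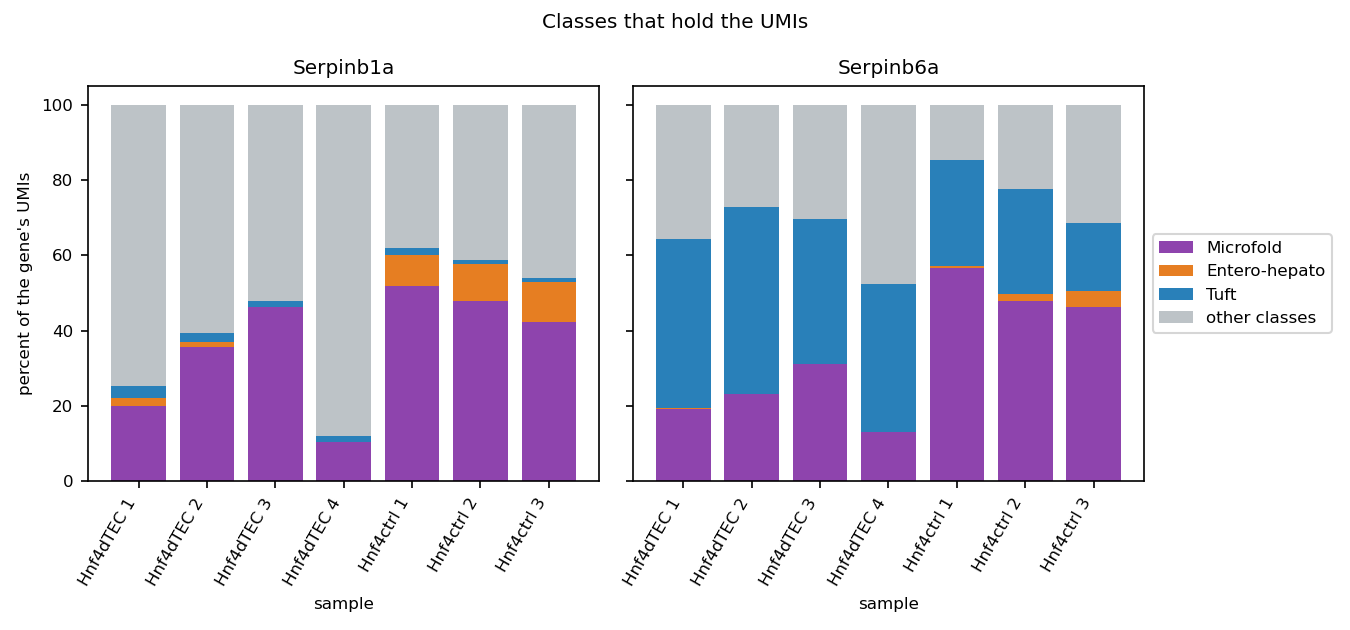
Bars give, for each sample with Hnf4dTEC on the left, the percent of Serpinb1a UMIs and of Serpinb6a UMIs that came from Microfold, Entero-hepato, Tuft and all other cells. The Microfold part of Serpinb6a averages lower in Hnf4dTEC samples, whose pooled share is 22.2%, than in Hnf4ctrl samples, at 49.2%.

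Within classes, Serpinb1a also fell in Microfold cells. It had 2295, 3105 and 4772 CPM in Hnf4dTEC samples 1 to 3 and 7991, 6619 and 7122 CPM in the Hnf4ctrl samples, without overlap (log2 fold change -1.13, standard error 0.26, adjusted p = 0.044). Hnf4dTEC sample 4 had 8 Microfold cells, under the minimum of 10, and was left out of this fit; its level was 3116 CPM. The other called member there was Serpinb6a, with 4086, 4325 and 6257 CPM in Hnf4dTEC samples 1 to 3 and 10296, 8688 and 8566 CPM in Hnf4ctrl samples (-0.94, standard error 0.21, adjusted p = 0.0368). The groups did not overlap, and sample 4 had 7416 CPM. So 2 of 7 tested members were called in Microfold cells, both lower, where 3.03% of 4656 genes were called and the serpin median was -0.63 against 0.01 for all genes.

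Both Microfold calls depended on single samples. They were lost without any 1 of the 3 Hnf4ctrl samples or without Hnf4dTEC sample 1 or 2 (adjusted p from 0.0832 to 0.126 for Serpinb1a and from 0.0721 to 0.141 for Serpinb6a), and with sample 4 admitted Serpinb6a gave -0.78 (adjusted p = 0.104) while Serpinb1a gave -1.17 (adjusted p = 0.0246). Summed myeloid or B cell markers were 343 to 712 CPM in Hnf4dTEC and 342 to 1721 CPM in Hnf4ctrl Microfold cells, with Lyz2 giving 469 UMIs in Hnf4dTEC and 942 UMIs in Hnf4ctrl, and their part in these values was not tested. The 5 genes of that list were all detected in Hnf4ctrl Microfold cells. Csf1r had 1 UMI in each genotype and Ms4a1 had 0 in Hnf4dTEC and 2 in Hnf4ctrl.

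**Figure D4:**
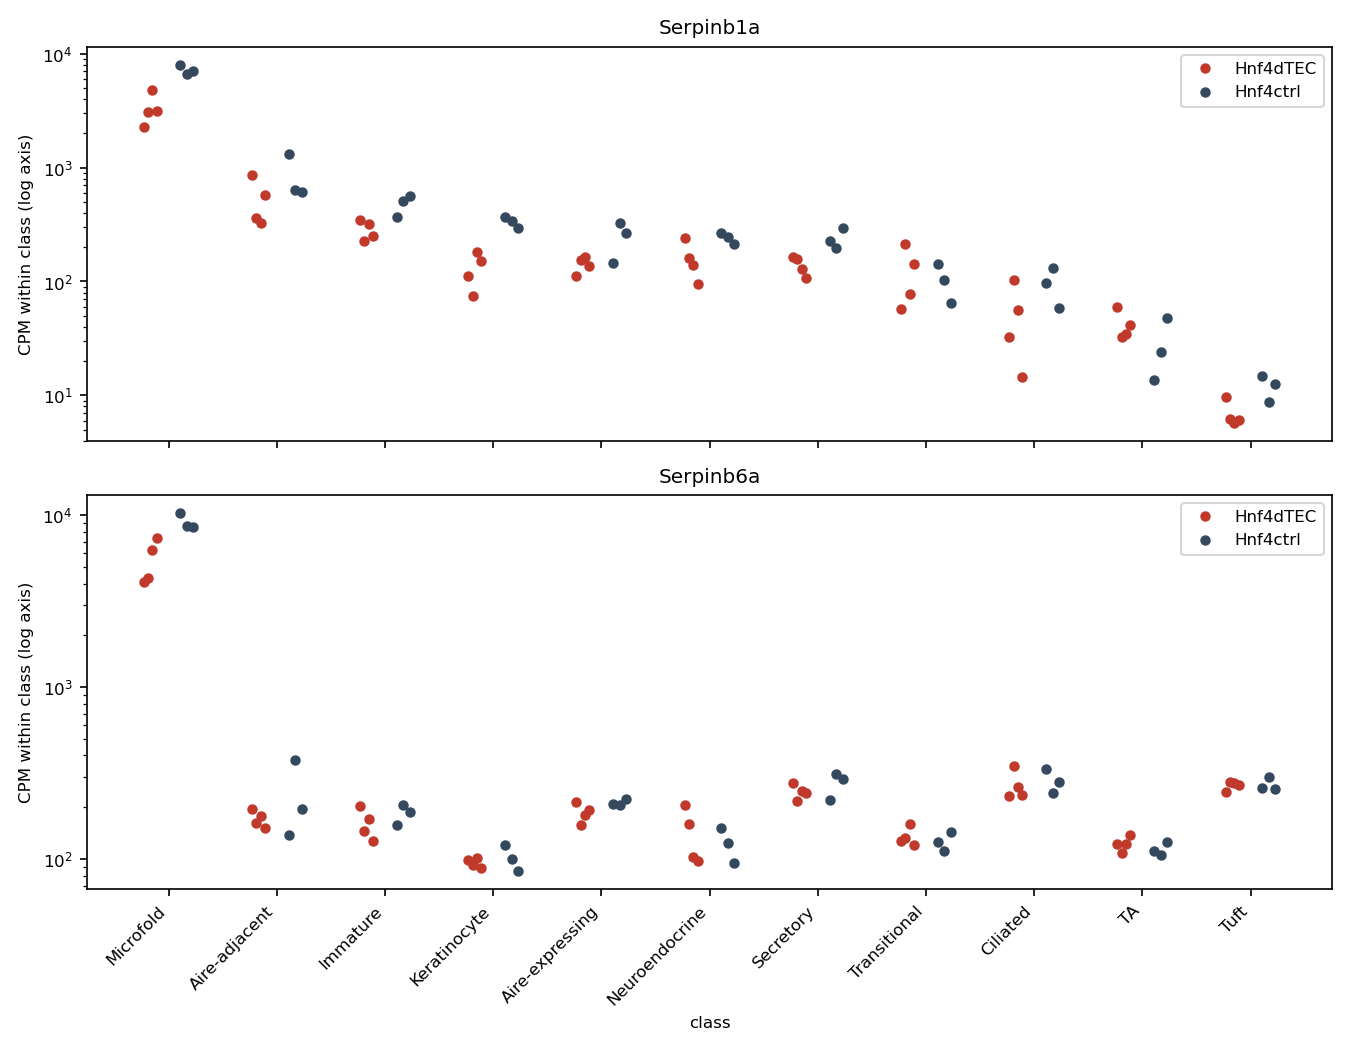
Points are the CPM of Serpinb1a (top) and Serpinb6a (bottom) within each of 11 tested classes, 1 point per sample, with Hnf4dTEC left of Hnf4ctrl, on a log axis. Serpinb1a is lower without overlap in Microfold, Immature, Keratinocyte and Secretory cells, and Serpinb6a in Microfold cells.

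Outside Microfold cells no serpin passed the threshold. Serpinb1a had negative values in 9 of 11 classes, and groups did not overlap in 4 classes. The share of all genes whose groups do not overlap is not given here. Non-overlap, for this and the other members, is thus a description without a background. In Keratinocyte cells it had 111, 74.8, 181 and 151 CPM in Hnf4dTEC samples and 369, 337 and 296 CPM in Hnf4ctrl samples (log2 fold change -1.39, adjusted p = 0.0763), which DESeq2 called. In Immature cells it averaged 286 ± 57.8 CPM in Hnf4dTEC and 483 ± 103 CPM in Hnf4ctrl samples, and in Secretory cells 139 ± 26.3 CPM in Hnf4dTEC and 239 ± 50 CPM in Hnf4ctrl samples (SD, n = 4 and 3), with edgeR adjusted p of 0.609 and 0.37. In TA and Transitional cells the values were 0.31 and 0.42. The classes share their samples, so these are not independent.

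Serpinb6a had negative values in 8 of 11 classes, and its groups did not overlap in 1, the Microfold class. Its Tuft levels averaged 268 ± 16.4 CPM in Hnf4dTEC and 270 ± 25.5 CPM in Hnf4ctrl samples (SD, n = 4 and 3). Over all cells, it had 254, 277, 304 and 217 CPM in Hnf4dTEC samples and 479, 441 and 374 CPM in Hnf4ctrl samples, without overlap, but it was not called (-0.70, standard error 0.13, adjusted p = 0.159) except by DESeq2 (adjusted p = 0.000522). Without Microfold cells its value was -0.06. The gene overlaps Nqo2, Ripk1 and 1110046J04Rik on the opposite strand, and whether strand was used in counting is not given in the sources used here.

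The balance of these inhibitors can be read without scaling, but over all cells it also moves with the mix of classes. Tuft cells, low in Serpinb1a, gave 43.1% of Serpinb6a UMIs in Hnf4dTEC and 23.2% in Hnf4ctrl samples. Serpinb1a made up 33.8% of the Serpinb1a and Serpinb6a UMIs of Hnf4dTEC cells (exact binomial interval 33.3 to 34.4, counting error only) and 46.1% (45.6 to 46.6) of those of Hnf4ctrl cells. In Keratinocyte cells it was 57.2% in Hnf4dTEC and 76.7% in Hnf4ctrl, in Microfold cells 39.9% in Hnf4dTEC and 44.4% in Hnf4ctrl, and in Tuft cells 2.6% in Hnf4dTEC and 4.3% in Hnf4ctrl. In Aire-adjacent cells the shares were 76.1% in Hnf4dTEC and 76.8% in Hnf4ctrl, and in Transitional cells 47.8% in Hnf4dTEC and 38% in Hnf4ctrl. Klk-rich cells (84.9% and 76.6%) and Muscle cells (53% and 39.2%) were also higher in Hnf4dTEC, and Entero-hepato and TA intervals overlapped. Aire-expressing, Ciliated, Immature, Ionocyte, Neuroendocrine and Secretory cells were lower in Hnf4dTEC. The 500 bases at the transcript ends of both genes held no 60-base word found in another serpin.

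The background for those counts was low. Of all genes tested, 0.389% were called in Neuroendocrine cells, 0.0881% in Tuft cells, 0.0799% in Keratinocyte cells and 0.0314% in Secretory cells. The share was 0% in Ciliated, TA, Immature, Transitional, Aire-expressing and Aire-adjacent cells. By edgeR, 0 members were called in each of these 10 classes, and 20 of 159 member values (12.6%) had an unadjusted p under 0.05, against 5.94% of the values of all genes. DESeq2 called Serpinb1a in Keratinocyte cells, where it called 0.402% of genes, and Serpinb9 in Neuroendocrine cells, where it called 0.558%. Over the 11 tested classes together DESeq2 called 5 of 272 member values and 0.276% of all values, and edgeR with no filter on low counts called 26 of 511 member values and 1.04% of all values. In the fit of whether the genotype effect differs between classes, 0.432% of genes and 0 of 34 serpins were called, with 6 members (17.6%) and 7.97% of all genes at an unadjusted p under 0.05. Serpinb6a had an edgeR adjusted p of 0.318 and Serpinb1a of 0.661. The class-by-class differences above are thus not shown to differ between classes.

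DESeq2 called 5 of 57 members over all cells, where it called 0.879% of genes: Serpinb1a, Serpinb6a, Serpina1b, Serpinb8 and Serpinb9e. The last 3 are named after their values were seen. Serpina1b, 1 of the mouse copies of alpha-1-antitrypsin, had 6 UMIs in Hnf4dTEC and 115 in Hnf4ctrl samples, and 0.691, 0.733 and 3.83 CPM in the Hnf4ctrl samples (log2 fold change -4.60, standard error 0.87, adjusted p = 0.16 by edgeR). The pooled level was 33.8-fold lower in Hnf4dTEC (counting interval 15.1 to 94), and 10.1-fold lower (3.76 to 31.6) without Hnf4ctrl sample 3, which held most UMIs. Of the Hnf4ctrl UMIs 42 lay in Entero-hepato and 39 in Microfold cells, and both classes had 0 in Hnf4dTEC. Few cells held them: 6 Entero-hepato cells, with 97.6% of the 42 UMIs in 5 of them, and 8 Microfold cells, with 87.2% of the 39 UMIs in 5. With 1 common mix of classes, on the log2(CPM + 1) scale of limma that shrinks low levels, the value was -0.45 (adjusted p = 0.559). That mix left out Microfold and Entero-hepato cells, where most of these Hnf4ctrl UMIs lay, so it says nothing of those cells. Summed hepatocyte markers, 5 genes of which none was at 0, were 6 to 15.7 CPM in Hnf4dTEC and 16.8 to 59.7 CPM in Hnf4ctrl samples, and their part in the value was not tested. Its assignment is uncertain, since 20.9% of 60-base words of its transcript end occur in other members and it overlaps Serpina1d on the same strand.

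Serpinb8 had 9.91, 8.02, 9.45 and 8.19 CPM in Hnf4dTEC samples and 12.3, 12.8 and 13.8 CPM in Hnf4ctrl samples (-0.54, standard error 0.11, adjusted p = 0.189). Serpinb9e, a relative of the granzyme B inhibitor, had 14.7, 12.4, 10.1 and 11.6 CPM in Hnf4dTEC samples and 9.08, 6.59 and 7.24 CPM in Hnf4ctrl samples (0.69, standard error 0.16, adjusted p = 0.28). Neither gene's groups overlapped, and neither was called by edgeR. Tuft cells held 95.7% of Serpinb9e UMIs in Hnf4dTEC and 90.3% in Hnf4ctrl samples, in 354 of 4118 Tuft cells, and Tuft cells were 47% of Hnf4dTEC and 41% of Hnf4ctrl cells. Within Tuft cells Serpinb9e averaged 27.9 ± 5.14 CPM in Hnf4dTEC and 18.2 ± 5.92 CPM in Hnf4ctrl samples, with overlap (SD, n = 4 and 3). The log2 fold change there was 0.58 (edgeR adjusted p = 0.413). Without Tuft cells its value over the remaining cells was -0.51, so the sign turns in that fit. Of the words of its transcript end, 32.4% occur in other members, mostly Serpinb9f, so its counts are uncertain too.

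**Figure D5:**
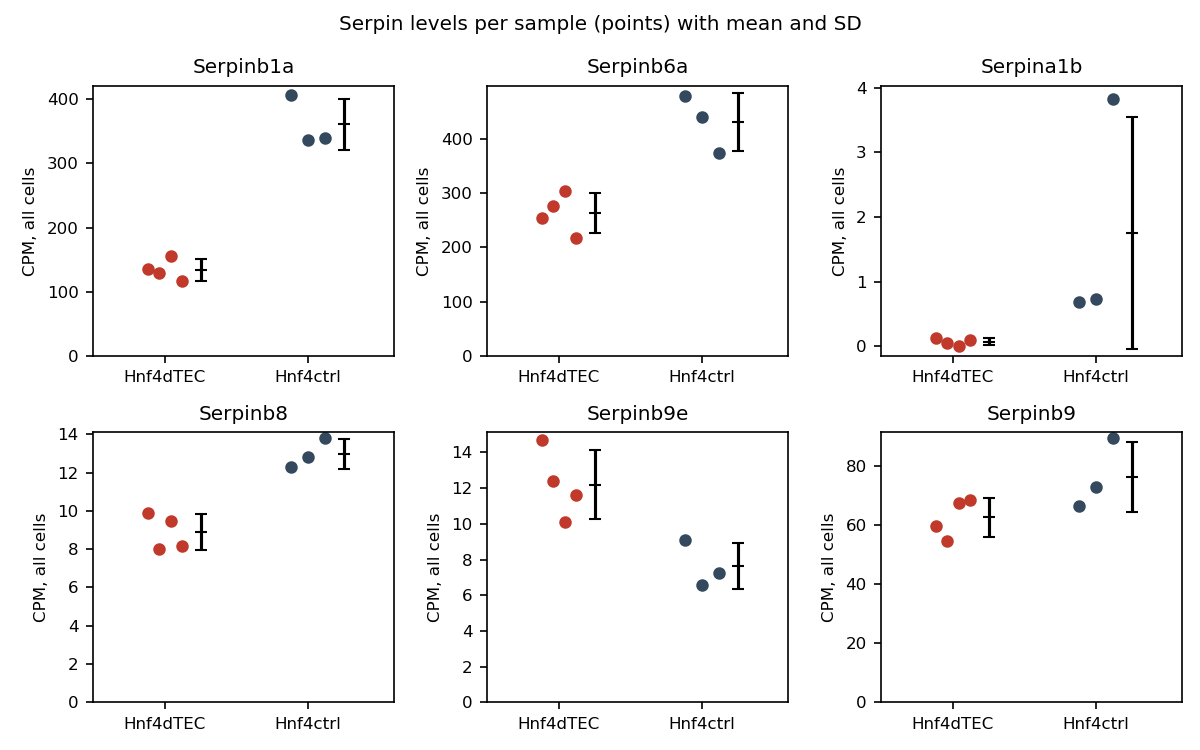
Points are CPM over all cells in each sample, Hnf4dTEC left of Hnf4ctrl, for 6 serpin genes, with the mean and SD in black. Hnf4dTEC points lie below all Hnf4ctrl points for Serpinb1a, Serpinb6a, Serpina1b and Serpinb8, above them for Serpinb9e, and overlap for Serpinb9.

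The remaining abundant members did not pass. Serpinb2 averaged 122 ± 33 CPM in Hnf4dTEC and 151 ± 41 CPM in Hnf4ctrl samples, Serpinb11 70.7 ± 20.4 and 57.9 ± 11.2 CPM, and Serpinb9 62.6 ± 6.6 and 76.4 ± 12 CPM (SD, n = 4 and 3). Serpina7, thyroxine-binding globulin, averaged 45.3 ± 8.3 CPM in Hnf4dTEC and 41.5 ± 6.93 CPM in Hnf4ctrl samples. The adjusted p for Serpinb6b, Serpinb7, Serpina3j and Serpinb12 was 0.996 or above. In Neuroendocrine cells Serpinb9 averaged 211 ± 15.3 CPM in Hnf4dTEC and 134 ± 28.4 CPM in Hnf4ctrl samples without overlap, with an edgeR adjusted p of 0.1, which DESeq2 called (adjusted p = 0.023). Without Hnf4ctrl sample 3 edgeR gave it 0.85 (adjusted p = 0.0291), against 0.64 with all samples. Serpina7 in Microfold cells averaged 544 ± 271 CPM in Hnf4dTEC and 242 ± 116 CPM in Hnf4ctrl samples (SD, n = 3 each), with overlap.

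The other 4 classes had too few cells for a test, and their pooled UMIs have exact Poisson intervals that cover counting error only. In Ionocyte cells Serpinb9 had 1267 CPM (1114 to 1435) in Hnf4dTEC and 1164 CPM (966 to 1389) in Hnf4ctrl samples. Serpinb1a had 51.3 CPM (24.6 to 94.3) in Hnf4dTEC and 238 CPM (154 to 352) in Hnf4ctrl samples there. These Serpinb1a levels rest on 10 UMIs in 18 Hnf4dTEC cells and 25 UMIs in 10 Hnf4ctrl cells. Only 10 of the 28 Ionocyte cells held a Serpinb1a UMI, with 80% of its UMIs in 5 cells. The 3 Entero-hepato cells of Hnf4dTEC samples came from samples 1 and 2. Their median was 31385 UMIs, against 12910.5 UMIs in the 82 Hnf4ctrl cells. In those 3 cells Serpinb1a had 1024 CPM (831 to 1247), against 1466 CPM (1396 to 1538) in the Hnf4ctrl cells. In Muscle cells the pooled order was the other way, with 135 CPM (117 to 155) in Hnf4dTEC and 71.7 CPM (54.7 to 92.2) in Hnf4ctrl samples. That order rests mostly on Hnf4dTEC sample 4. It gave 156 of 211 Serpinb1a UMIs but 791369 of 1562389 UMIs of all genes in Hnf4dTEC Muscle cells. Klk-rich cells had 830 CPM of Serpinb1a (774 to 888) in Hnf4dTEC and 860 CPM (790 to 934) in Hnf4ctrl samples. In Klk-rich cells Serpina1e had 75 UMIs in Hnf4dTEC and 1 in Hnf4ctrl samples, all 75 from 1 cell.

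The enzymes and receptors that serpins act on were followed in a list of 39 proteases, receptors and clients. Over all cells, 36 were tested and 0 called by edgeR, which called 0.184% of all genes, and the median log2 fold change was -0.13. An unadjusted edgeR p under 0.05 was found for 5 of the 36, against 6.65% of all genes. DESeq2 called 1, the protease Tmprss2 (-0.95), and 0.879% of all genes. In Microfold cells 10 were tested and edgeR called 2, both lower, where it called 3.03% of all genes. These were collagen IV chains, which are matrix clients rather than proteases. An unadjusted edgeR p under 0.05 was found for 7 of the 10, against 16.3% of all genes. Besides the collagens, these were Ctsl, Htra1 and Tmprss2, lower in Hnf4dTEC, and St14 and Sorl1, higher, none of them called. By edgeR, Col4a1 averaged 11.3 ± 3.63 CPM in Hnf4dTEC and 73.7 ± 10.9 CPM in Hnf4ctrl samples (-2.67, adjusted p = 0.00675). Col4a2 averaged 4.59 ± 2.09 CPM in Hnf4dTEC and 83.9 ± 43.6 CPM in Hnf4ctrl samples (SD, n = 3 each, -4.05, edgeR adjusted p = 0.0101). Microfold cells of Hnf4dTEC samples 1 to 3 held 278481, 286006 and 313082 UMIs, so these low levels rest on few UMIs. Summed fibroblast markers were 0 to 3.59 CPM in Hnf4dTEC and 0 to 38.4 CPM in Hnf4ctrl Microfold cells. Their part in the collagen values was not tested. The leukocyte proteases Elane, Prtn3 and Ctsg were highest in 1 Hnf4dTEC library, sample 4, with 32, 52.4 and 24.5 CPM, against at most 2.52 CPM in Hnf4ctrl samples. Hnf4dTEC sample 3 had 9.55, 8.04 and 2.04 CPM of them, and Hnf4dTEC samples 1 and 2 had at most 0.983 CPM of any. In the other 10 classes edgeR called 0 partners. There 19 of 155 partner values had an unadjusted edgeR p under 0.05, against 5.94% of the values of all genes. DESeq2 called 1 partner in those classes, Elane in TA cells, with an extreme log2 fold change of 23.18. The share of all TA genes that DESeq2 called is not given here. Whether that call rests on Hnf4dTEC samples 3 and 4, where Elane was high over all cells, was not tested.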

How the data were processed

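UMI counts of 1 droplet run were deposited by the authors with a table of cells that names sample and class. Counting used Cell Ranger 6.1.0, with mm10, and Seurat 4.0.2 was also named, per the submitters' processing notes; the matrix header names Cell Ranger 7.0.0. Whether reads were counted by strand is not given in the sources used here. The library of hash tags alone was not used here. Members and gene lists were chosen with earlier results of these data known. All 9185 annotated cells were kept; Scrublet (scanpy 1.11.5) marked 184. Sums of UMIs were taken for each sample, for all cells together and for single classes (at least 10 cells in each of at least 3 samples per genotype), and tested on all genes with edgeR 4.0.16 (quasi-likelihood, filterByExpr, TMM, two-sided, Benjamini-Hochberg, threshold 0.05), and with DESeq2 1.42.0 and limma 3.58.1 (log2(CPM + 1)) as alternatives (R 4.3.3). Scripts were tested on simulated data. Named genes were called members, the 10 of highest mean CPM and the member of highest ratio in each class with at least 50 UMIs; others, among them Serpinb8, Serpinb9e and Serpina1b, were chosen after their values were seen. Of the members, 1 is counted in the totals but its own values are not reported here. Gene positions came from GENCODE M21 (68 of 69 identifiers in the same version). Intervals cover counting error only.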

Additional observations from a re-analysis of the deposited data

Results flagged for a closer look

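In 41 groups of 4 Hnf4dTEC samples, 3 had 1 sample far from the other 3, where chance gives about 1 in 20. Hnf4dTEC sample 1 stood apart each time: Serpina7 over all cells at 57.7 CPM, Serpina1e over all cells at 4 CPM and Serpinb1a in Tuft cells at 9.7 CPM.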

How the results depend on the processing

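The count of serpins called over all cells was 1, and became 5 with DESeq2 and 0 with the replicate block, without Tuft cells or without Microfold and Entero-hepato cells; leaving out 1 sample gave 0 to 1. Within classes the count was 2, and became 5 with DESeq2, 26 with no filter on low counts, 0 with the replicate block and 1 with at least 5 cells per sample; leaving out 1 sample gave 0 to 2. The fits without Microfold cells, without both classes and with 5 cells were chosen after seeing the data. Deviations of samples of the same number had correlations of 0.229, 0.0835 and 0.043, and those of different number had -0.353 to 0.413. So few values cannot tell whether the numbers pair the samples. The replicate block gave Serpinb1a -1.35 (adjusted p = 0.069 by edgeR) over all cells. Among uncalled values, the sign turned in these cases. Without both classes, Serpinb9 gave 0.00, Serpinb6b 0.13 and Serpina3j 0.01. With 1 common class mix, Serpinb9 gave 0.11, Serpinb11 -0.17, Serpinb6b 0.16, Serpina3j 0.17 and Serpinb7 -0.02. That mix held no Microfold or Entero-hepato cells. Without Entero-hepato cells, Serpinb6b gave 0.02 and Serpina3j 0.03; without Microfold cells Serpinb6b gave 0.01. The replicate block gave Serpina3j 0.01 and Serpinb12 -0.17. Serpina3j gave 0.05 without marked doublets and 0.03 without Tuft cells, and Serpinb9e gave -0.51 without Tuft cells. With 1 sample left out, ranges crossed 0 for Serpinb6b (-0.20 to 0.13), Serpina7 (-0.01 to 0.26), Serpina3j (-0.11 to 0.11), Serpinb7 (-0.08 to 0.30) and Serpinb12 (-0.21 to 0.44), and for Serpinb6a in Aire-adjacent (-0.71 to 0.01), Ciliated (-0.23 to 0.04), Keratinocyte (-0.25 to 0.04), Transitional (-0.01 to 0.27) and Tuft cells (-0.06 to 0.07). Serpinb6a in Tuft cells gave 0.00 with no filter. The causes were not tested. The 20-cell minimum could not be fitted for every class.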
